A study of Danio rerio with 4 samples.

Results

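Proteasome genes were examined in endothelial cells of zebrafish larvae at day 5 after fertilisation, taken by cell sorting from the caudal hematopoietic tissue, a venous plexus of the tail where blood stem cells lodge and multiply. The members are the genes whose identifier has a symbol starting with psma, psmb, psmc, psmd, psme, psmf or psmg, ignoring case: 59 of the 28346 genes listed. All larvae were untreated, had the labelled genotype Wildtype, and carried Tg(kdrl:GFP;lyve1b:DsRed), in which GFP is driven by the promoter of a vascular receptor gene and DsRed by that of a vein and lymphatic gene. The vein group was sorted as cells with both colours and the non-vein group, also labelled control, as cells with GFP alone, with 2 libraries in each group. The number of larvae behind a library is not stated, and nothing says that replicates came from separate pools. The p-values therefore reflect the spread among 4 libraries, which may be technical.

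The proteasome is the barrel-shaped protease that breaks down proteins tagged with ubiquitin. Its core particle is built of alpha subunits, which form the outer rings and gate the entry, and beta subunits, which form the inner rings and hold the cutting sites. A regulatory particle of PSMC ATPases and PSMD subunits receives tagged proteins, removes the ubiquitin and threads the chain into the core, while PSME proteins are alternative activators of the core and PSMG proteins help to assemble it. In immune cells and under interferon, the cutting subunits PSMB5, PSMB6 and PSMB7 are replaced by PSMB8, PSMB9 and PSMB10, which alters the peptides made for MHC class I molecules.

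The libraries held 18047152 and 18862102 estimated counts for non-vein cells, with 15672159 and 16409447 for vein cells. Levels are given as CPM, counts scaled to a common library size with TMM factors, and, where genes are compared with one another, as FPKM, which is per transcript length. A gene was called where edgeR's quasi-likelihood test across 15953 genes gave a Benjamini-Hochberg adjusted p under 0.05. All 7 pan-endothelial markers looked at had counts in every library, but so had leukocyte genes such as CORO1A and LCP1, so their presence alone does not settle the label. lyve1b, whose promoter drives DsRed, had 989 and 4266 counts against 29898 and 25656 in the double-positive vein cells, and kdrl, whose promoter drives GFP, was 3.72-fold higher in vein (edgeR, adjusted p = 0.0177).

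Transcripts of the proteasome took a smaller share of the vein libraries. The 59 genes together held 2.16% and 1.78% of all counts of the non-vein group but 0.936% and 0.759% of those of the vein group. In scaled terms their sum was 19127 ± 2868 CPM in non-vein and 8764 ± 1161 CPM in vein (SD, n = 2), 2.18 times as much in non-vein. With 2 libraries against 2, an exact permutation test of a single value cannot give a two-sided p below 0.33, so such sums are given without a test. In RNA from pooled cells, fewer cells of a type that is rich in these transcripts and less of these transcripts in each cell cannot be told apart.

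Gene by gene, the groups were separate in nearly every case. Both vein libraries were below both non-vein libraries in 55 of the 59 genes, and above both in 1. These 56 are the members tested, and of all genes tested 33.1% were below and 29.0% above. The other 3 were PSMB9, with counts in non-vein library 2 alone, PSMB11, with 2 counts in all, and psmb11b, with none. These 3 did not pass the filter on low counts, and of the 56 that did, PSMB8, psmb13a and PSME4 (ENSDARG00000087911) passed it only through their non-vein counts, so that a difference was built into their passing.

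By the test, 25 of the 56 were called lower in vein, against a background of 7.33% of genes tested, and 0 were called higher, against 4.11%. One of the 25, PSMC3IP, shares the prefix without being a subunit, and another, PSMB8, was tested only because of its non-vein counts. At an unadjusted p under 0.05 there were 47 lower and 1 higher, where 4795 of all 15953 genes tested passed in either direction. DESeq2 called 39 lower and 1 higher. Among all genes it also called more than edgeR, both lower and higher, so its counts do not compare with the 7.33% and 4.11%. The median log2 fold of vein over non-vein was -1.09, where that of all genes tested was 0.01, and 25.1% of all genes tested had a log2 fold at or below -1.09. The number of calls rested on the libraries, and with 1 library left out the median log2 fold of the members lay between -1.25 and -0.92.

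**Figure D1:**
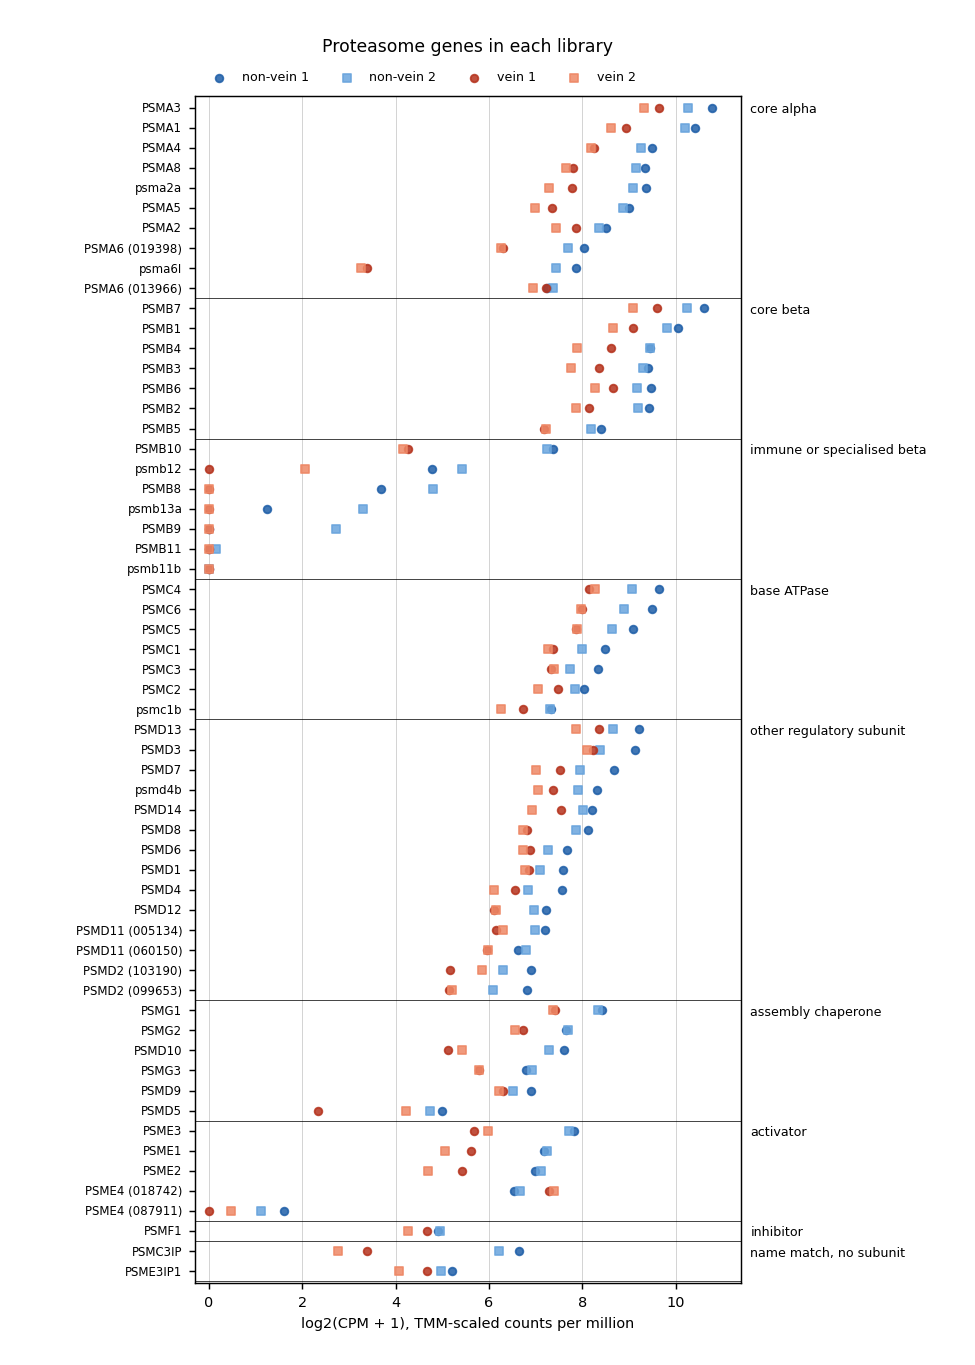
Level of each of the 59 genes in each of the 4 libraries, as log2(CPM + 1) on the horizontal axis, grouped by role, with the last 6 digits of the identifier where a name is shared by 2 genes. The vein points lie left of the non-vein points in 55 genes, and PSME4 (ENSDARG00000018742) is the one gene with both vein points to the right.

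Most alpha subunits of the core were lower in vein. Of the 10 alpha genes 7 were called lower, where 7.33% of all genes tested were, with a median log2 fold of -1.53 over the 10. Their summed level was 2.5 times as high in non-vein as in vein, where the ratio for the standard beta genes was 2.14, and the difference between these classes was not tested. PSMA5 stood at 509 and 466 CPM in non-vein against 163 and 126 CPM in vein. The difference was 3.37-fold (log2 -1.75, SE 0.23; edgeR, adjusted p = 0.0162), with a wide gap between the groups. PSMA1 stood at 1370 and 1168 CPM in non-vein and 492 and 390 CPM in vein, 2.88-fold lower (edgeR, adjusted p = 0.0178). PSMA8, for which RefSeq lists psma7 as a synonym, stood at 648 and 564 CPM against 220.3 and 200.1 CPM, also 2.88-fold lower (edgeR, adjusted p = 0.0165). These genes encode structural members of the outer ring, and in each the libraries of a group lay closer to each other than to the other group. PSMA4 was 2.24-fold lower (edgeR, adjusted p = 0.0256), a call lost without vein library 1 and without vein library 2 (largest adjusted p = 0.0786 over its alternatives). PSMA3, the alpha gene with the highest FPKM, stood at 1762 and 1237 CPM in non-vein and 798 and 639 CPM in vein and did not pass the test (log2 -1.06, SE 0.25; edgeR, adjusted p = 0.0525).

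Where an alpha subunit has several genes, these gave unlike values. Among the 3 genes named for PSMA6, psma6l stood at 230.6 and 173 CPM in non-vein against 9.4 and 8.55 CPM in vein. Its 22.5-fold difference (log2 -4.49, SE 0.30; edgeR, adjusted p = 0.00985) had the smallest adjusted p of all 59 genes. The gene PSMA6 (ENSDARG00000019398) stood at 263 and 205 CPM in non-vein and 77.8 and 75.1 CPM in vein, 3.06-fold lower (edgeR, adjusted p = 0.0194), a call lost without vein library 1 (adjusted p = 0.052). The other PSMA6 (ENSDARG00000013966) stood at 150.6 and 164 CPM against 149 and 122 CPM, with the nearest libraries of the groups almost touching (log2 -0.21, SE 0.23; edgeR, adjusted p = 0.613). By FPKM, psma6l made up 26.7% and 23.4% of the summed FPKM of the 3 genes in non-vein and 2.61% and 2.73% in vein, and PSMA6 (ENSDARG00000013966) went from 27.2% and 34.7% to 64.7% and 61.0%.

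Of the pair named for PSMA2, psma2a was 3.2-fold lower, from 653 and 543 CPM to 219 and 155 CPM (edgeR, adjusted p = 0.0203), and PSMA2 (ENSDARG00000035679) stood at 360.3 and 325 CPM against 231 and 171 CPM (log2 -0.77; edgeR, adjusted p = 0.093). psma2a held 55.0% and 53.1% of the FPKM of the pair in non-vein and 39.9% and 38.1% in vein. Whether paralogs differed in their fold was not tested, and estimated counts of close paralogs can share reads, so their split is uncertain. For the pairs at PSMC1, PSMD2, PSMD4 and PSMD11 the shares of the groups overlapped.

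**Figure D2:**
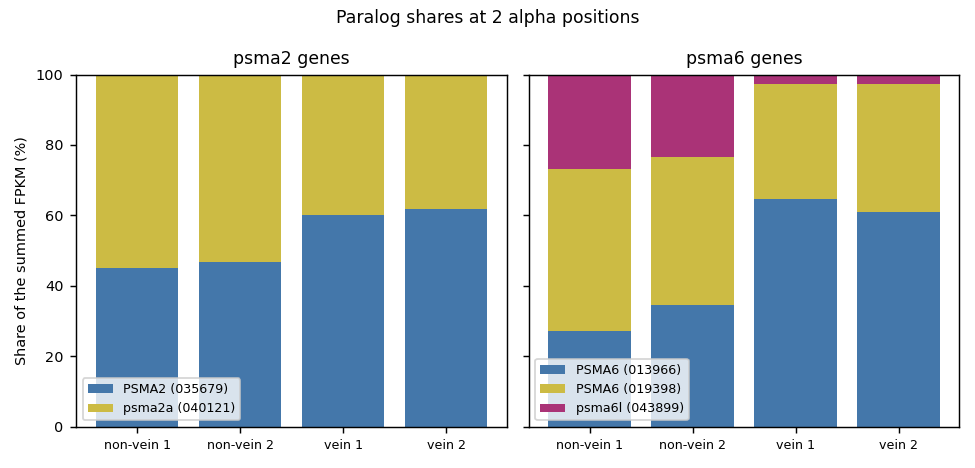
Share of the summed FPKM, in percent, that each paralog holds in each library for the genes named for PSMA2 (left) and PSMA6 (right), with the last 6 digits of each identifier. The psma6l segment shrinks from 26.7% and 23.4% of the non-vein libraries to 2.61% and 2.73% in the vein libraries.

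The beta subunits of the standard core had log2 folds close to one another. Those of the 7 genes PSMB1 to PSMB7 ran from -1.30 to -0.86, and 4 of the 7 were called lower, where 7.33% of all genes tested were. PSMB2 stood at 684 and 584 CPM in non-vein and 282 and 233 CPM in vein, 2.46-fold lower (edgeR, adjusted p = 0.0235). PSMB5, which carries the chymotrypsin-like cutting site, stood at 338 and 290.5 CPM against 143 and 148 CPM, 2.16-fold lower (edgeR, adjusted p = 0.0311). PSMB3 and PSMB1, which hold no cutting site, were 2.39-fold and 2.06-fold lower (edgeR, adjusted p = 0.039 and 0.0453). PSMB7, with the trypsin-like site, stood at 1567 and 1216 CPM against 773 and 538 CPM (edgeR, adjusted p = 0.0537), and PSMB6, with the caspase-like site, at 709 and 577 CPM against 404 and 306 CPM (edgeR, adjusted p = 0.0744). PSMB4, also without a cutting site, stood at 699 and 699 CPM against 392 and 237 CPM (edgeR, adjusted p = 0.0585). All 7 had both vein libraries below both non-vein libraries, as had 33.1% of all genes tested. The 4 calls were each lost with vein library 2 left out (largest adjusted p over their alternatives = 0.0691 to 0.132). Over the 17 alpha and beta genes 11 were called. That number changed with the library left out, as did the number called lower among all genes.

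Within the alpha subunits, and within the beta subunits, the order of the mean levels was the same in both groups. With paralogs summed, FPKM of the 7 alpha positions ran from 466 to 1788 in non-vein library 1 and from 142 to 776 in vein library 1, with PSMA5 lowest and PSMA3 highest in every library. Among the 7 beta positions PSMB5 was lowest and PSMB7 highest in every library, from 264 to 1586 FPKM in non-vein library 1 and from 107 to 752 FPKM in vein library 1. The group means of FPKM ranked the 7 alpha positions and the 7 beta positions identically in the groups (Spearman's rho = 1.0 for each). Over the 6 ATPase positions the order was less alike, with a rho of 0.771. Over the 20 alpha, beta and ATPase positions together rho was 0.974. These are descriptions across genes that share libraries and transcript lengths.

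Of the 7 immune and specialised beta genes, 6 had counts, 4 were tested and 2 were called lower, PSMB10 and PSMB8, where 7.33% of all genes tested were. Their summed level was 219 ± 22.0 CPM in non-vein and 19.2 ± 1.23 CPM in vein (SD, n = 2), most of it from PSMB10. PSMB10, the interferon-inducible counterpart of PSMB7, stood at 164 and 151 CPM in non-vein against 18.4 and 16.9 CPM in vein, 8.92-fold lower (log2 -3.16, SE 0.26; edgeR, adjusted p = 0.0111). PSMB8, the counterpart of PSMB5, stood at 11.8 and 26.9 CPM in non-vein, with 217 and 530 counts, and had 0 counts in both vein libraries (edgeR, adjusted p = 0.0187). It was at least 203-fold lower when the vein group is set at 3 counts over its libraries, a bound that covers counting error only and was 122 without non-vein library 2, 278 without non-vein library 1, 103 without vein library 1 and 100.1 without vein library 2. The call of PSMB10 was made in all 15 alternative settings. PSMB8 was tested only because of its non-vein counts, so its p and its calls under other settings add no support. Both genes had separate groups, and by FPKM their non-vein levels were low beside those of PSMB7 and PSMB5.

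The remaining genes of this class were scarce or uneven. PSMB9, the counterpart of PSMB6, had 110 counts in non-vein library 2 and 0 in the other 3 libraries, and was not tested. psmb12 and psmb13a are fish genes for which RefSeq lists the synonyms beta1t and beta2ta, which place them at the sites of PSMB6 and PSMB7. psmb12 stood at 26.6 and 42.2 CPM in non-vein and at 0 and 3.19 CPM in vein (log2 -4.42, SE 1.59; edgeR, adjusted p = 0.129). psmb13a stood at 1.36 and 8.89 CPM against 0 counts in both vein libraries and did not pass the test (edgeR, adjusted p = 0.0692). PSMB11, whose mammalian counterpart belongs to the thymus, had 2 counts in non-vein library 2, and psmb11b had none. In RefSeq's table of another build (GRCz12tu), psmb8a, psmb13a, psmb12, psmb9a and the peptide transporter gene tap2a follow one another, psmb8a and psmb13a overlap, and the class I gene mhc1uba precedes them. psmb13a and psmb12 overlap as well. No source used here tells whether counting used strand, so reads of these neighbours may not be told apart. tap2a itself had 0 counts in every library, and mhc1uba had 100 and 333 counts against 4 and 75 in vein.

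Set against the standard cutting subunits, the immune and specialised genes also made up a smaller part in vein. Their summed FPKM came to 7.94% and 11.7% of that of PSMB5, PSMB6 and PSMB7 for non-vein and to 1.39% and 2.2% for vein. At the beta 2 site PSMB10 reached 9.5% and 11.5% of the FPKM of PSMB7 in non-vein and 2.17% and 2.99% in vein. At the beta 5 site PSMB8 reached 3.72% and 9.89% of PSMB5 in non-vein and 0 in vein. At the beta 1 site psmb12 reached 5.36% and 10.3% of PSMB6 in non-vein and 0 and 1.5% in vein, above PSMB9, which reached 0 and 1.03% in non-vein. In each of these ratios, apart from that of PSMB9, the vein libraries were both below the non-vein libraries. The ratio of PSMB8 only restates its 0 counts in vein. PSMB8 and psmb13a, both part of the sum, passed the filter only through their non-vein counts, so their part in these ratios adds no support. The ratios were not tested.

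**Figure D3:**
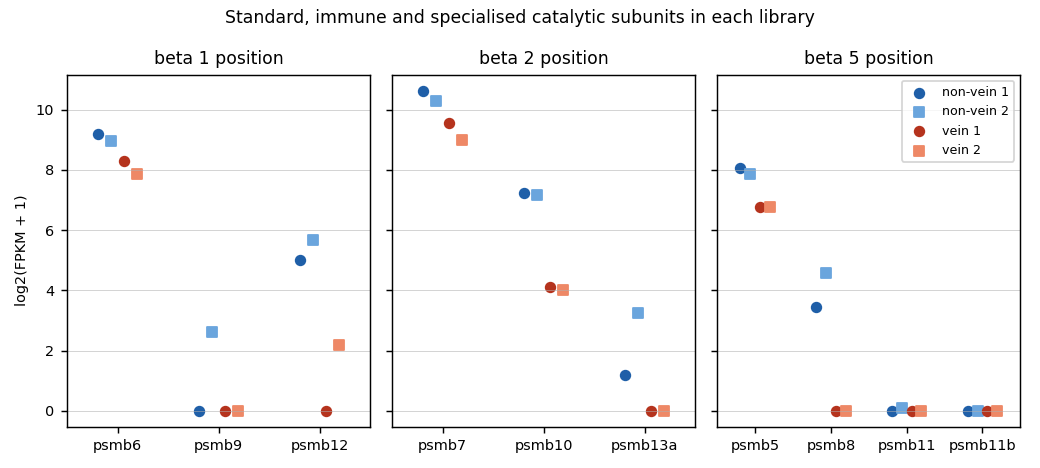
Level of the standard, immune and specialised subunits of the 3 cutting sites in each library, as log2(FPKM + 1), with the assignment of psmb12 and psmb13a to sites taken from RefSeq synonyms. PSMB10 is the one replacement subunit with counts in both vein libraries, and PSMB8 and psmb13a stand at 0 there.

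Genes of the regulatory particle were also lower in vein. Its 7 ATPase genes had a median log2 fold of -0.95 and its 14 other subunits one of -0.88, and their summed level was 1.9 times as high in non-vein as in vein, where that of the standard core was 2.32 times as high, and the difference between the particles was not tested. Of these 21 genes 4 were called lower, where 7.33% of all genes tested were: PSMC6, PSMC4 and PSMC5, which are ATPases that unfold the substrate, and PSMD8, a subunit of the lid. PSMC6 stood at 716 and 473 CPM in non-vein and 254 and 251 CPM in vein, 2.36-fold lower (edgeR, adjusted p = 0.0394). PSMC4 was 2.25-fold and PSMC5 2.02-fold lower (edgeR, adjusted p = 0.0445 and 0.0485). PSMD8 stood at 276 and 231 CPM against 111 and 105 CPM, 2.35-fold lower (edgeR, adjusted p = 0.0279).

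The calls in this particle did not hold with single libraries left out. All 4 were lost without non-vein library 1, without vein library 1 and without vein library 2. The number called lower among all genes changed with the library left out as well. The spread between replicates differed among the ATPases: PSMC4 stood at 797 and 531 CPM in non-vein and 283 and 307 CPM in vein, and psmc1b at 158.8 and 158.3 CPM against 104.8 and 74.9 CPM. All 21 genes had both vein libraries below both non-vein libraries, as had 33.1% of all genes tested. Among subunits that did not pass, PSMD14, which cuts ubiquitin chains off the substrate, stood at 295 and 258 CPM against 185 and 120.3 CPM (edgeR, adjusted p = 0.104). PSMD4, a receptor for ubiquitin chains, stood at 189 and 113 CPM against 93.6 and 67.5 CPM, and its paralog psmd4b at 317 and 237 CPM against 165 and 132 CPM (edgeR, adjusted p = 0.146 and 0.0779). PSMD1, a scaffold of the particle, had the smallest difference of the 21 (log2 -0.53, SE 0.26; edgeR, adjusted p = 0.244).

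**Figure D4:**
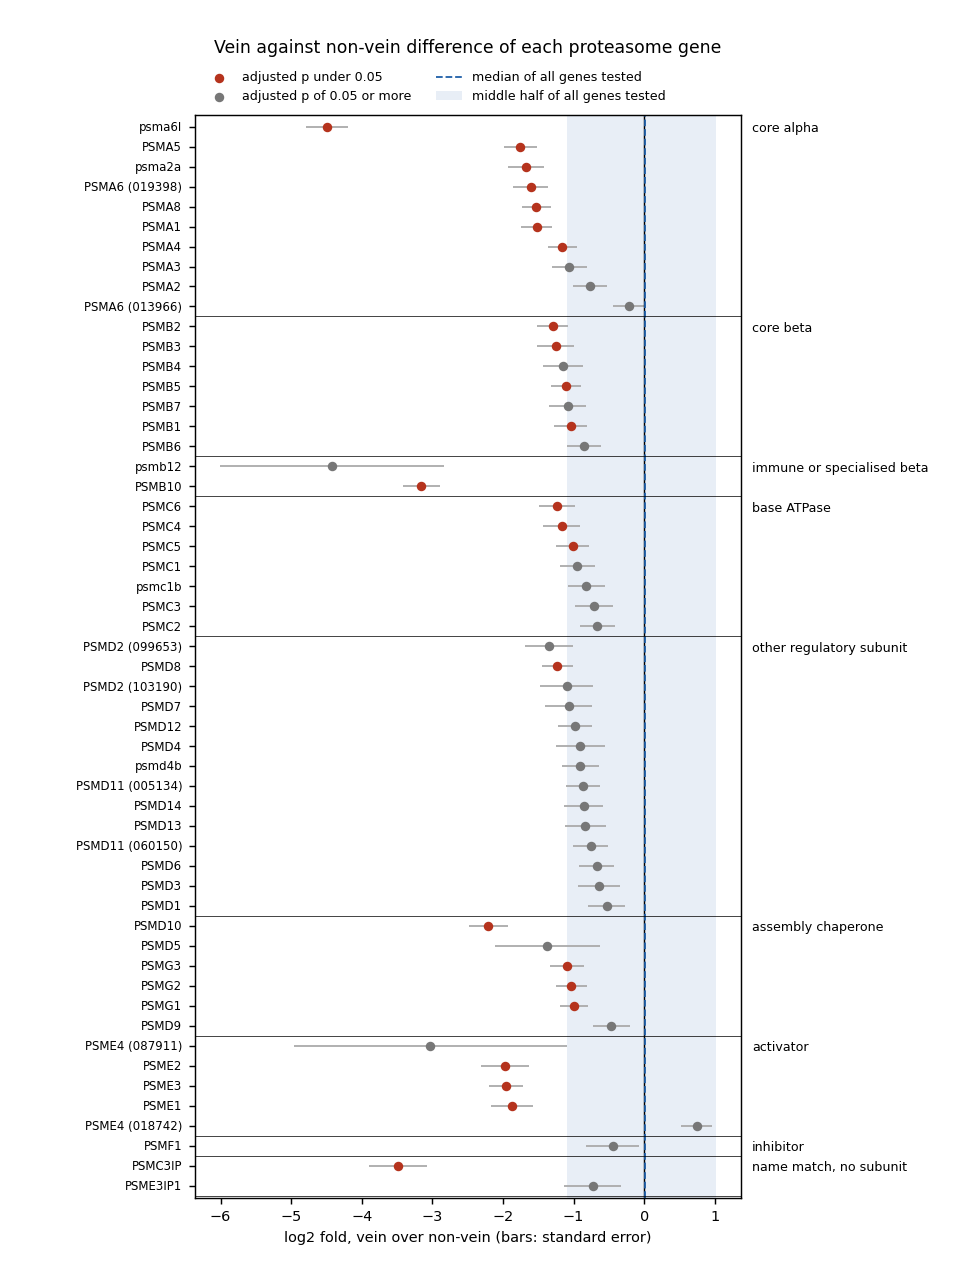
Log2 fold of vein over non-vein for the tested genes with vein counts, grouped by role, with the standard error as a bar, red for adjusted p under 0.05 and grey otherwise, and the interquartile range of all genes tested shaded. Alpha genes reach from -4.49 to -0.21, genes of the regulatory particle stay between -1.35 and -0.53, and PSME4 (ENSDARG00000018742) lies at 0.74.

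The activators split. PSME1 and PSME2, which together form an activator ring that interferon induces in mammals, stood at 145 and 149 CPM and at 125 and 138 CPM in non-vein against 47.9 and 32.2 CPM and 41.9 and 24.9 CPM in vein. They were 3.67-fold and 3.93-fold lower (edgeR, adjusted p = 0.0208 and 0.0251). PSME3, their nuclear relative, stood at 225 and 209 CPM against 50.2 and 61.7 CPM, 3.88-fold lower (log2 -1.96, SE 0.24; edgeR, adjusted p = 0.0157). Of the 5 activator genes these 3 were called lower, where 7.33% of all genes tested were. The 3 calls were made in all 15 alternative settings. PSME4 (ENSDARG00000018742), a large activator of the nucleus, went the other way, at 92.3 and 100.8 CPM in non-vein and 155 and 168 CPM in vein. Its groups were separate and its level 1.67-fold higher in vein, without passing the test (log2 0.74, SE 0.22; edgeR, adjusted p = 0.0886). DESeq2 called it narrowly (DESeq2, adjusted p = 0.0453), while the limma fits on FPKM had 0 members higher even at an unadjusted p under 0.05. The second PSME4 (ENSDARG00000087911) had 38 and 23 counts against 0 and 6 in vein (edgeR, adjusted p = 0.371). PSMF1, an inhibitor of the core, stood at 28.9 and 29.7 CPM against 24.6 and 18.3 CPM (edgeR, adjusted p = 0.504).

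Of the 6 assembly chaperones 4 were called lower, where 7.33% of all genes tested were. PSMD10, also known as gankyrin, which guides the ATPase ring and was first described as an oncoprotein, stood at 195 and 154 CPM in non-vein and 34.03 and 41.6 CPM in vein, 4.62-fold lower (log2 -2.21, SE 0.27; edgeR, adjusted p = 0.0157). PSMG1, PSMG2 and PSMG3, which help to build the alpha ring, were also called (edgeR, adjusted p = 0.0353, 0.0401 and 0.0452). PSMG1 stood at 344 and 320 CPM against 168 and 164 CPM, and PSMG2 and PSMG3 were 2.05-fold and 2.13-fold lower. Replicates of the PSMG genes lay close together, with PSMG3 at 110 and 120.0 CPM against 54.01 and 53.8 CPM. The call of PSMD10 was made in all 15 alternatives, while those of PSMG2 and PSMG3 were lost with any 1 library left out and that of PSMG1 with any but non-vein library 2 (largest adjusted p = 0.115 to 0.13). PSMD9 and PSMD5, which also chaperone the ATPases, did not pass, and the vein libraries differed for PSMD5, at 4.05 and 17.8 CPM. PSMC3IP, a cofactor of meiotic recombination that carries the prefix only by its name, stood at 98.7 and 72.7 CPM against 9.47 and 5.8 CPM, 11.2-fold lower (edgeR, adjusted p = 0.0151). PSME3IP1, a partner of PSME3, stood at 35.9 and 30.6 CPM against 24.3 and 15.8 CPM (edgeR, adjusted p = 0.299).

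Among genes that work with the proteasome, calls were about as frequent as among all genes. Of 23 tested partners without the prefix 2 were lower and 1 higher, beside 7.33% and 4.11% of all genes tested, with a median log2 fold of -0.41. The lower genes were USP14 and UCHL5, deubiquitinases that dock on the regulatory particle. USP14 stood at 99.8 and 97.5 CPM against 35.4 and 27.7 CPM, 3.12-fold lower, and UCHL5 at 302 and 208 CPM against 104 and 89.9 CPM, 2.62-fold lower (edgeR, adjusted p = 0.0248 and 0.0334). The higher gene was MIDN, which in mammals brings nuclear proteins to the proteasome, at 125 and 144 CPM against 296 and 287 CPM, 2.16-fold (edgeR, adjusted p = 0.0311). POMP, which matures the core, and the subunits SEM1 and ADRM1, which lack the prefix, had separate groups with vein below, at log2 folds of -0.76, -0.66 and -0.62 (edgeR, adjusted p = 0.0779, 0.0966 and 0.163). Of the 23 partners 9 had both vein libraries below, 4 had both above and 10 overlapped. Of all genes tested 33.1% were below and 29.0% above. For the transcription factor NFE2L1, which drives subunit genes when the proteasome is inhibited, the groups of both genes overlapped. NFE2L2, its relative in the oxidative stress response, stood at 131 and 134 CPM against 221 and 255 CPM (edgeR, adjusted p = 0.0611).

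Of 39 tested genes of ubiquitin and its delivery 2 were higher and 2 lower, again near the 4.11% and 7.33% of all genes tested, with a median log2 fold of -0.18. The higher genes were the polyubiquitin genes UBB (ENSDARG00000002369), at 805 and 1015 CPM in non-vein and 2796 and 2589 CPM in vein, and ubb (ENSDARG00000093313), at 421 and 453 CPM against 1135 and 1261 CPM. These were 2.96-fold and 2.74-fold differences (edgeR, adjusted p = 0.0159 and 0.016). Among the lower genes was rps27a, in which ubiquitin is fused to a ribosomal protein, at 836 and 994 CPM against 469 and 471 CPM, 1.95-fold lower (edgeR, adjusted p = 0.0364). Genes that repeat the ubiquitin unit can share reads, so the split between them is uncertain. VCP, the segregase that pulls tagged proteins out of complexes, had overlapping groups.

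The list of MHC class I antigen processing had 2 calls among 22 tested, both lower: tapbpl, a relative of the peptide-loading factor tapasin, at 17.5 and 29.1 CPM against 0 and 0.319 CPM, and cd74b, the invariant chain of class II molecules, at 15.6 and 72.9 CPM against 0 counts in vein (edgeR, adjusted p = 0.0287 and 0.0207). Both passed the filter only through their non-vein counts, so a difference was built into their being tested, and 2 of 22 is near the background. The list had a median log2 fold of -0.64, but its summed level was 1136 ± 139 CPM in non-vein and 1614 ± 279 CPM in vein (SD, n = 2). Of the 22 tested, 14 had a negative log2 fold. Abundant genes with a higher mean in vein weighed on the sum, among them b2ml and PDIA3. PDIA3 had a mean of 107 CPM in non-vein and stood at 285 and 140 CPM in vein. TAP1, the transporter partner of tap2a, was low and had overlapping groups. b2m stood at 32.3 and 57.6 CPM against 15.7 and 17.98 CPM in vein, and b2ml at 184 and 303 CPM against 560 and 577 CPM (edgeR, adjusted p = 0.0867 and 0.0516).

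**Figure D5:**
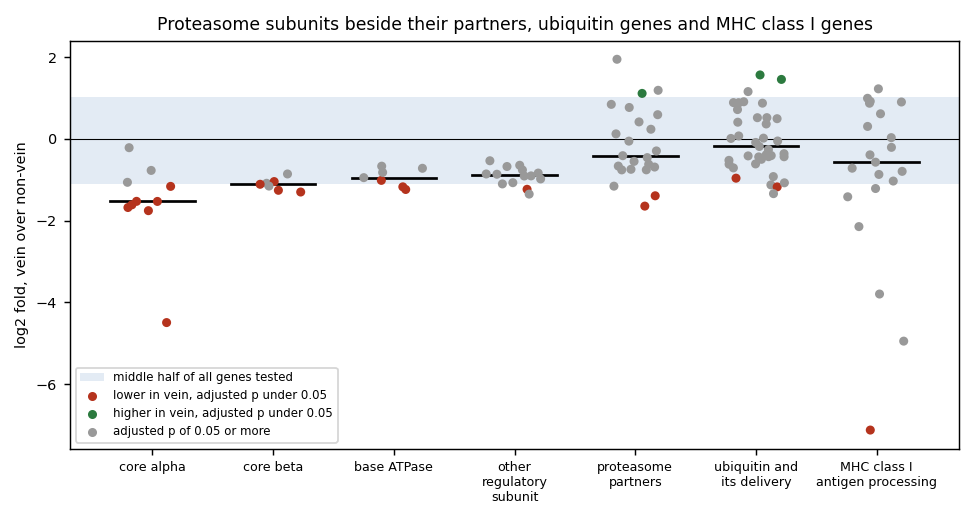
Log2 fold of vein over non-vein for each tested gene with counts in both groups, by class or list, with red for genes lower and green for genes higher at an adjusted p under 0.05, black lines at the median of the genes plotted and the interquartile range of all genes tested shaded. Subunit genes of the core and the regulatory particle lie below 0 throughout, while partners, ubiquitin genes and MHC class I genes lie on both sides.

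Markers of leukocytes and blood progenitors and of dividing cells moved with the same contrast. Each other list of blood cells or stroma had at most 1 lower call, but only 0 of 7 macrophage genes and 1 of 7 lymphocyte genes were tested. The macrophage list could therefore give no call, and the lymphocyte list at most 1. Beside each count of calls below stand the 7.33% of all genes tested that were called lower and the 4.11% called higher. Of 13 tested leukocyte and blood progenitor genes 9 were lower and 0 higher in vein. The list took 0.344% to 0.440% of non-vein counts against 0.0132% to 0.0312% of vein counts. Both CXCR4 genes of that list also stand in the arterial list, and gfi1aa had 0 counts in vein. Of 9 arterial genes 5 were lower and 1 higher. The 5 were both CXCR4 genes and 3 genes tested only because of their non-vein counts. Both vein libraries lay above both non-vein libraries in 3 arterial genes, as they did in 29.0% of all genes tested, and the groups overlapped in 1. Of the 9 lower leukocyte and progenitor genes 2 were tested only because of their non-vein counts. Among 9 vein and lymphatic genes 6 were higher and 0 lower. One of the 6 was lyve1b, whose promoter drives the DsRed used for sorting, so its direction was tied to the sort. Of 16 tested cell cycle genes 15 were lower and 0 higher, and the list took 0.452% to 0.577% against 0.0586% to 0.0696%. Most pan-endothelial genes went the other way, with 5 of 7 higher and 0 lower, at 0.370% to 0.525% of counts against 1.28% to 1.56% in vein. FLI1 did not, with both vein libraries below, at 317 and 258 CPM against 237 and 204 CPM in vein (edgeR, adjusted p = 0.328). Among the 5 higher genes was kdrl, whose promoter drives the GFP of both groups. By group means it held 2477 of the 4330 CPM of this list in non-vein and 9219 of 14678 CPM in vein. The macrophage markers csf1ra and c1qa and the lymphocyte markers RAG1, cd4-1 and il7r had 0 counts in every library, while one macrophage gene, MPEG1 (ENSDARG00000055290), had 224 counts in vein library 1 and 0 in the other libraries. Of the neutrophil and erythroid markers 0 of 4 and 0 of 4 tested were called. The vein libraries were far apart in the neutrophil list, at 0.0125% and 0.0698% of counts, against 0.0751% and 0.0732% in non-vein. In that list lyz stood at 666 and 633 CPM against 82.8 and 563 CPM in vein (edgeR, adjusted p = 0.475). mmp13a went the other way, at 3.42 and 0.254 CPM against 16.5 and 48.3 CPM in vein (edgeR, adjusted p = 0.0918), and the groups of the other 2 overlapped. Of the erythroid genes tested, 2 had overlapping groups and 2 had both vein libraries above. hbae1.1 was one of the former, at 1123 and 792 CPM against 675 and 1132 CPM in vein. alas2 was one of the latter, at 0.0543 and 1.73 CPM against 4.77 and 21.05 CPM in vein (edgeR, adjusted p = 0.178). Thrombocyte markers had 1 lower, tested only because of its non-vein counts, and 1 higher of 4 tested, and mural and stroma markers 0 lower and 1 higher of 6. The part of these markers in the proteasome difference was not tested.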

How the data were processed

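RNA of sorted cells was read as libraries of enriched mRNA from a NEBNext Ultra kit on an Illumina instrument, per the labels' protocols. Per the submitters' processing notes the build was GRCz11 and the tools were RSEM, HISAT2, DESeq2, StringTie 1.3.1, fastp 0.18.0 and Bowtie2 2.2.8, with no role given for each. The main table holds estimated counts deposited by the authors. Its columns are headed as FPKM, but the values are whole numbers with a different total in each library, so they were used as rounded estimated counts. The second table holds FPKM values deposited by the authors.

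Of 25522 Ensembl identifiers 23608 had a symbol in the name table given with the data, and all 59 members were in both tables. 4 names are shared by 2 identifiers, which are then given. List symbols were matched by name, by RefSeq synonym or without the paralog letter.

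In R 4.3.3, edgeR 4.0.16 kept the genes passing filterByExpr at a minimum count of 10, set TMM factors and ran its quasi-likelihood test (legacy method) with group as the only factor. The standard error is the log2 fold divided by the square root of F. Alternatives used DESeq2 1.42.0 and limma 3.58.1. edgeR with and without the replicate block, DESeq2, limma-voom and limma on log2 values were run on simulated counts, and the other alternatives were not. The simulated spread was smaller than that of these data, whose common biological coefficient of variation was 0.699. That run therefore does not show the error rates here. A count of 0 allows up to 0.152 to 0.196 CPM in a library, by counting error only. Named members are every member past the threshold, every immune or specialised subunit with counts, and the most abundant one in classes without a call; others named were chosen after their values were seen. The members and lists were chosen with earlier results of these data known. No sequences are printed, and 1 gene of the lists is not reported here by name.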

Additional observations from a re-analysis of the deposited data

How the results depend on the processing

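Members kept their direction in every alternative. Of 836 values of single members, 705 stayed on their side of the threshold, 51 lost the call, 80 gained it and 0 reversed. The groups of all 56 tested members were separate, so a refit of these libraries could hardly reverse a direction. The absence of reversals therefore adds no support. With 1 library left out, the median log2 fold of the members lay between -1.25 and -0.92. Members called lower ranged from 15 to 32 over those fits, standard core genes from 6 to 14 and regulatory particle genes from 0 to 10. The number of genes lower in vein ranged from 622 (without non-vein library 1) to 1313, and that of genes higher in vein from 408 (without vein library 1) to 942. With DESeq2, 39 members were lower and 1 higher, 12 of them in the regulatory particle, and 2389 genes were lower and 1693 higher. With limma on log2(FPKM + 1), 39 members and 12 of the regulatory particle were lower, with 2137 genes lower and 1163 higher. Without its filter on a mean FPKM of 1, that fit called 1 gene of the regulatory particle and 333 genes higher. On log2(FPKM + 0.1), 8 of the regulatory particle and 1769 genes were lower. Without a filter on counts, 9 of the regulatory particle were lower and 1092 genes higher, and limma-voom gave 7 and 1026. The labels do not say that equal replicate numbers mark a shared pool, and across genes the deviations of same-numbered libraries correlated at r = 0.0441. With the replicate number as a block, 20 members were lower, 1 of them in the regulatory particle, and 716 genes were lower. The cause of these changes was not tested. The median log2 fold of all genes tested was -0.28 without vein library 2, -0.14 without vein library 1 and on log2(FPKM + 0.1), and 0.12 without non-vein library 2. PSMB11 and the second PSME4 had few counts, and PSMB9 had counts in 1 library.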
